A study of Nicotiana tabacum with 12 samples.

Results

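Carotenoid and plastid isoprenoid synthesis was followed through 89 genes of a table of 69500, in seedling leaves of tobacco (Nicotiana tabacum). The 89 were every gene whose deposited description matches a set list of names. The list covered carotenoids, enzymes that make or cleave them, some steps of the plastid precursor route, and polyprenyl synthetases. Cyclodiphosphate synthase and isopentenyl diphosphate isomerase, further precursor steps, were outside the list and are counted with the neighbouring routes. Genes described as geranylgeranyl reductase were left out. The choice used descriptions only and no measured value. RNA was sequenced in 4 groups of 3 libraries: KY and the flue-cured cultivar K326, both wild type, a knockout labelled Q18 and an overexpression labelled YOE. The study concerned NtCISZOG, a gene of the cis-zeatin O-glucosyltransferase type, and chlorophyll content.

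The design text names the lines K326-gk-8 and KY-OE-31, so K326 was taken as the reference of the knockout and KY as that of the overexpression. Whether the labels Q18 and YOE stand for these lines, which promoter drives the transgene and how many plants entered a library are not given in the sources used here. In the raw data the YOE libraries carry the name G31. The targeted gene could not be checked, since no description names it. A group of genes picked by their own deposited values bears on the labels: 87 genes had at least 2 TPM in all 3 K326 libraries and at most 0.2 in all 3 KY libraries. The libraries labelled overexpression had 85, 82 and 85 of the 87 at 1 or more, and those labelled knockout had 85, 85 and 86. Of 13 genes with the opposite state, 0, 1 and 1 reached that level in the overexpression libraries. For overexpression against KY, the line and the background therefore cannot be told apart, and K326 was used as an added reference. Nothing says that replicates are separate plants, so a p-value here speaks only of how these libraries vary, which may be technical.

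Plants make carotenoids inside plastids from precursors of the methylerythritol phosphate route, which starts from pyruvate and glyceraldehyde phosphate. Prenyl synthases join these units into chains, phytoene synthase couples a pair of geranylgeranyl diphosphates into colourless phytoene, and desaturases, an isomerase and cyclases turn phytoene into coloured carotenes. Hydroxylases, an epoxidase and a de-epoxidase then form and interconvert the xanthophylls, which protect the photosystems from excess light, and carotenoid oxygenases cleave carotenoids to apocarotenoids such as the precursors of abscisic acid. The same precursors feed chlorophyll's phytol tail, tocopherols, plastoquinone and solanesol, a long prenyl alcohol that tobacco leaves store.

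Values were deposited without a named unit and read as TPM, a transcript share per length. Totals per library were 454145 to 494866 for KY, 507091 to 635180 for K326, 608606 to 676862 for the knockout, against 334759 to 489980 in the overexpression libraries. Because these totals differed, each library was divided by a scaling factor, between 0.516 (overexpression replicate 2) and 1.51 (in the knockout). The median log2 difference of all tested genes was then 0.02 between knockout and K326, -0.01 between overexpression and KY, 0.02 between K326 and KY and -0.02 between overexpression and K326, each as the former minus the latter. As deposited, these medians were 0.24, -0.11, 0.39 and -0.51, so a direction on the deposited scale is read against them. Values below are scaled TPM, and changes are differences of log2(scaled TPM + 1) with their standard error (SE), a scale that understates the change of low genes. A change was called at a limma adjusted p under 0.05 over the 31064 genes that passed the low-value filter (31311 as deposited). The libraries were leaf-like by their markers. The 76 chlorophyll a-b binding genes had summed levels between 34021.5 and 46654.5 in KY, 22165.5 and 38250.7 in K326, 17691 and 33611.2 in the knockout, and 22182.9 and 42570.2 in the overexpression libraries. The 14 Rubisco small chain genes summed to between 14243.5 and 24164.5, 10357.8 and 12667.6, 7225 and 17909.8, and 13015.8 and 20312.3 in the same order. Of these markers, 72 and 10 passed the filter. In bulk leaf RNA, fewer cells of a type and less RNA per cell cannot be told apart.

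Of the 89 genes, 61 passed the filter and were tested, 10 were at 0 in every library and 18 were too low, with no single value above 2.77. The untested genes were mostly copies of families of which others were abundant: 16 of 23 carotenoid oxygenases, 7 of 13 squalene/phytoene synthases and 2 of 16 polyprenyl synthetases other than the solanesyl type. In each of 3 further groups 1 gene was untested, the hydroxymethylbutenyl diphosphate synthases, the squalene synthases and the genes with a lycopene cyclase-type FAD domain alone. Near-identical copies, which an allotetraploid carries from both ancestral genomes, can share reads, so the split between copies is less certain than their sum. Nitab4.5_0003495g0010 passed the filter through the overexpression group alone, so its difference there was bound to appear. It is 1 of the higher calls of the overexpression in the counts below and adds no support to them.

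In the knockout, 0 of the 61 tested genes were higher and 0 lower than in K326 by limma, against a background of 0% and 0.0129% of all tested genes on scaled values, and 0.0128% and 0.00639% as deposited, where 0 of 63 were called. At an unadjusted p under 0.05, limma gave 1 of 61 on scaled values and 5 of 63 as deposited, among 2104 and 2543 genes in all. The smallest limma adjusted p of any tested gene of the group was 0.416 scaled and 0.555 as deposited. The 1 gene was the squalene/phytoene synthase Nitab4.5_0006449g0010, an enzyme of the phytoene step, at 23.9, 20.9 and 18.5 in the knockout and 29, 26.4 and 33 in K326. Its groups did not overlap, and the difference was -0.46 ± 0.13 (limma adjusted p = 0.42). It was -0.20 as deposited. The median log2 difference of the tested genes was -0.07 scaled and 0.17 as deposited.

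Against KY, the overexpression libraries were higher at 9 and lower at 24 of the 61 genes, or 14.8% and 39.3%, against a background of 17.7% and 17.3%. As deposited, 8 were higher and 16 lower of 63, against a background of 6.76% and 11.5%. The share of lower calls lay above the background on both scales. The calls were not spread evenly: genes from phytoene to the cyclases gave 11 of the 24 lower calls, and polyprenyl synthetases gave 7 of the 9 higher calls. The median difference was -0.37 scaled and -0.43 as deposited. With each of the 6 libraries left out in turn, 18 of the 33 calls held every time, 6 higher and 12 lower. These were 4 of 7 calls in precursor supply, 4 of 9 in prenyl chain synthesis, 8 of 11 from phytoene to the cyclases, 1 of 2 in the xanthophyll steps and 1 of 4 among the oxygenases.

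Between the wild types, K326 was higher at 6 and lower at 17 genes, or 9.84% and 27.9%, against a background of 12.3% and 13%. As deposited, it was higher at 13 and lower at 2, against a background of 24% and 2.99%, so the balance of directions turned with the scale and only 8 genes were called the same way on both, 6 higher and 2 lower. The median difference of the tested genes, -0.17 scaled and 0.27 as deposited, lay below that of all genes on either scale. The 23 scaled calls became 9 without KY replicate 1, 14 without KY replicate 3 and 9 without K326 replicate 2. With each library left out in turn, 9 calls held every time, 1 of 4 in precursor supply, 2 of 5 in prenyl chain synthesis, 6 of 10 from phytoene to the cyclases and 0 of 3 and 0 of 1 in the xanthophyll steps and the oxygenases.

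Against K326, the overexpression libraries were higher at 8 and lower at 3 genes, or 13.1% and 4.92%, against a background of 5.59% and 4.73%. As deposited they were higher at 3 and lower at 33, against a background of 1.89% and 36.9%, and 6 genes were called the same way on both scales. The 11 scaled calls became 3 without K326 replicate 2, 4 without K326 replicate 3, 1 without overexpression replicate 2 and 7 without overexpression replicate 3. Of the calls tested in all 6 such fits, only that of a deoxyxylulose phosphate synthase, Nitab4.5_0000402g0040, held in each. In a fit of the 6 compared libraries alone, 0 of the 11 were called by limma, Nitab4.5_0000402g0040 at an adjusted p of 0.0523, so the differences from K326 given below rest on the spread shared with the other 2 groups. The last 3 comparisons share libraries, KY or K326, and each is therefore given by its own values.

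**Figure D1:**
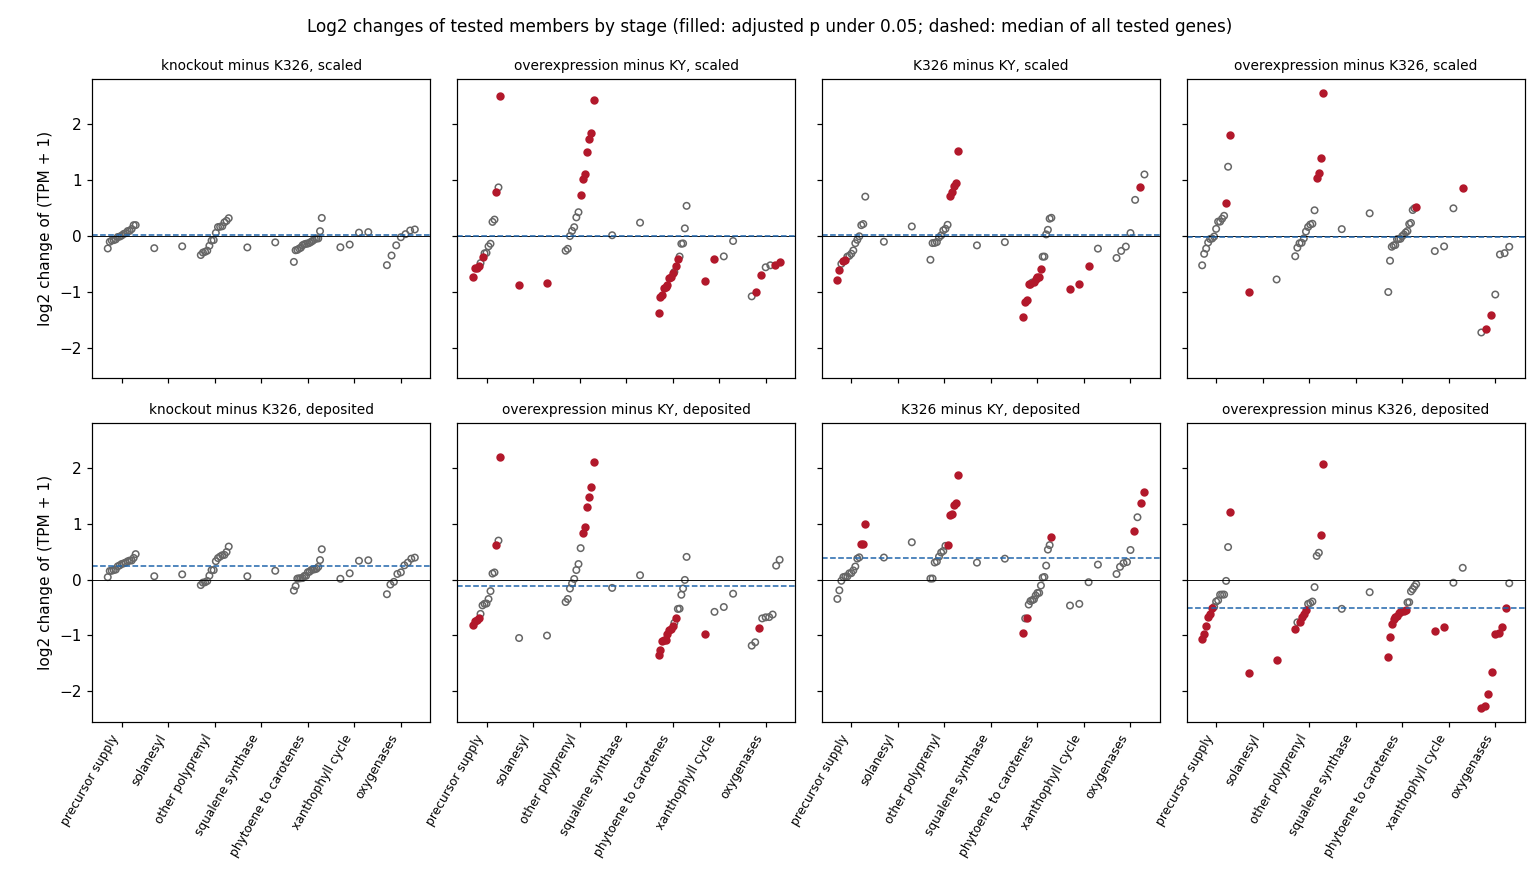
Difference of log2(TPM + 1) for each tested gene (points) by pathway stage, in 4 comparisons, on scaled values (upper row) and as deposited (lower row). Filled points have a limma adjusted p under 0.05 and the dashed line is the median of all tested genes, which moves to 0.39 for K326 minus KY and -0.51 for overexpression minus K326 as deposited. No point is filled in the knockout, while the genes from phytoene to carotenes lie mostly below the line for overexpression minus KY.

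Precursor supply, which makes the isoprene units, had a call in each direction at its entry step, the lower of them unsteady. Deoxyxylulose phosphate synthase, the rate-limiting entry enzyme, had 5 tested copies, of which 1 was called higher and 1 lower in the overexpression than in KY. The lower one, Nitab4.5_0000151g0300, fell outside the naming rule and was named after its values were seen, at 2.02 to 2.47 against 2.96 to 3.52. Its call did not stand as deposited and held in only 3 of 6 fits without 1 library, at limma adjusted p of up to 0.119. With the 6 compared libraries alone the limma adjusted p was 0.0686. The low copy Nitab4.5_0000402g0040 stood at 0.939, 1.49 and 1.24 in KY, 1.86, 3.28 and 2.82 in K326, 2.17, 2.44 and 4.17 in the knockout, against 11.8, 15.8 and 8.28 in the overexpression libraries. All 3 overexpression values lay above every other library. The difference was 2.51 ± 0.25 from KY (limma adjusted p = 4.3e-05) and 1.80 ± 0.25 from K326 (limma adjusted p = 0.0046), and both were called as deposited too. The most abundant copy, Nitab4.5_0003546g0010, stood at 42.7, 34.3 and 39.8 in KY, 28.9, 25.5 and 35.8 in K326, 35.3, 14.9 and 30.8 in the knockout, against 79, 122 and 38 in the overexpression libraries. Overexpression replicate 3 lay inside the KY range, and the difference from KY, 0.87 ± 0.39, was not called (limma adjusted p = 0.1). Summed over the 5 copies, the step stood at 60.2 ± 5.70 in KY, 51.0 ± 7.13 in K326, 47.8 ± 12.1 in the knockout, against 115 ± 54.0 in the overexpression libraries (SD, n = 3).

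Of the 10 tested genes of later precursor steps, 4 were lower and 1 higher in the overexpression than in KY. The shares of all tested genes were 17.3% lower and 17.7% higher. Diphosphocytidyl methylerythritol kinase, which phosphorylates the cytidylated intermediate, was higher at Nitab4.5_0002300g0020, with 9.09, 7.51 and 8.04 in KY, 9.91, 8.25 and 10.5 in K326, 11.9, 9.58 and 11.8 in the knockout, compared with 12.2, 19 and 14.1 in the overexpression. The overexpression lay above both wild types, by 0.79 ± 0.16 from KY (limma adjusted p = 0.0035) and 0.59 ± 0.16 from K326 (limma adjusted p = 0.04). The difference from K326 was -0.023 as deposited, above the median of all tested genes, -0.51. The scaled call against K326 was lost in 5 of 6 fits without 1 library. Hydroxymethylbutenyl diphosphate synthase, an iron-sulphur enzyme near the end of the route, was lower in the overexpression at 3 of 4 tested copies. Its most abundant copy, Nitab4.5_0000650g0220, stood at 100, 91.1 and 94.5 in KY, 74.9, 74.5 and 89.5 in K326, 89.3, 73.6 and 84.6 in the knockout, against 70.7, 69.6 and 51.8 in the overexpression. The overexpression libraries lay below all others, and the difference from KY was -0.58 ± 0.15 (limma adjusted p = 0.011), while K326 minus KY, -0.26 ± 0.15, was not called (limma adjusted p = 0.22).

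The copy Nitab4.5_0005621g0180, whose description also names a DHBP synthase-like and a YrdC-like domain, was lower in all 9 other libraries (3.7 to 4.24) than in KY (6.38 to 7.5). It differed from KY by -0.73 ± 0.09 in the overexpression (limma adjusted p = 0.00021) and by -0.62 ± 0.09 in K326 (limma adjusted p = 0.00097), the latter not called as deposited. A further copy, Nitab4.5_0012814g0010, was called lower in the overexpression, at 8.02 to 13.4 against 15.2 to 18.3 in KY. Its call held in only 3 of 6 fits without 1 library, at limma adjusted p of up to 0.0815. Of the 2 reductoisomerase copies, which make the methylerythritol skeleton, neither was called in the overexpression against KY. Both were called lower in K326, Nitab4.5_0009783g0020 by 0.44 and Nitab4.5_0007719g0010 by 0.43 on the log2 scale. Each call held in only 1 of 6 fits without 1 library. As deposited the differences were 0.045 and 0.055, below the median of all tested genes, 0.39. Of the 2 cytidylyl transferases, which attach the cytidyl group, Nitab4.5_0001085g0130 was called lower in the overexpression (-0.54 ± 0.19, limma adjusted p = 0.045). That call held in only 2 of 6 fits without 1 library, at limma adjusted p of up to 0.158. Nitab4.5_0006159g0030 was called lower in K326 (-0.79 ± 0.19, limma adjusted p = 0.011), though not as deposited.

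Prenyl chain synthesis held 7 of the 9 higher calls of the overexpression against KY, all outside the solanesyl type. Solanesyl diphosphate synthase, which builds the plastoquinone side chain and the diphosphate of solanesol, was lower there and was among the most abundant steps. Its copy Nitab4.5_0001140g0030 stood at 295, 323 and 337 in KY, 285, 257 and 353 in K326, 245, 292 and 247 in the knockout, compared with 214, 108 and 221 in the overexpression. Its other copy, Nitab4.5_0007036g0010, stood at 194, 239 and 248, at 238, 227 and 304, at 220, 237 and 200, and at 162, 73.9 and 166 in the same order. At both copies every overexpression library lay below all others, and replicate 2, which has the lowest scaling factor, was lowest. The differences from KY were -0.88 ± 0.25 (limma adjusted p = 0.018) and -0.84 ± 0.27 (limma adjusted p = 0.034), and as deposited neither was called, at adjusted p of 0.055 and 0.094. Against K326 the latter copy was called at -1.01 ± 0.27 (limma adjusted p = 0.04) and on the deposited scale. That call was lost in 4 of 6 fits without 1 library, at up to 0.132 without K326 replicate 3, and its call against KY in 3 of 6, at up to 0.0988 without KY replicate 3 (limma adjusted p). The call of Nitab4.5_0001140g0030 was lost without KY replicate 3 alone, at a limma adjusted p of 0.058.

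The other polyprenyl synthetases, a family that includes geranyl, farnesyl and geranylgeranyl diphosphate synthases, were not assigned to a chain length by their descriptions. Of 14 tested, 7 were higher and 0 lower in the overexpression than in KY, 5 were higher and 0 lower in K326 than in KY, and 4 were higher and 0 lower in the overexpression than in K326. The 7 and the 4 include Nitab4.5_0003495g0010, which passed the filter through the overexpression group alone and adds no support. As deposited, with the solanesyl type included, the counts were 6 and 0, 6 and 0, and 2 and 7. Of all tested genes, 17.7%, 12.3% and 5.59% were called higher in these comparisons on scaled values, and 6.76%, 24% and 1.89% as deposited. Called lower were 17.3%, 13% and 4.73% on scaled values, and 11.5%, 2.99% and 36.9% as deposited. The sum of the family was 127 ± 13.9 in KY, 168 ± 8.89 in K326, 176 ± 13.2 in the knockout, against 236 ± 33.5 in the overexpression (SD, n = 3). As deposited the sums were 97.5 ± 3.64, 184 ± 27.1, 233 ± 14.7 and 162 ± 26.9. On that scale the knockout mean was highest and the overexpression mean lay below that of K326, while KY was lowest on both scales. They are given below in an order chosen after the values were seen, those called higher in the overexpression than in both wild types before those that were low in KY.

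Nitab4.5_0001922g0120 stood at 12, 9.97 and 12.5 in KY, 14.3, 21 and 23.9 in K326, 22.4, 18.4 and 25.6 in the knockout, compared with 30.3, 49.6 and 54.6 in the overexpression. Its overexpression libraries lay above all others and its KY libraries below all others. It was higher by 1.84 ± 0.24 in the overexpression than in KY (limma adjusted p = 0.00023), and by 1.13 ± 0.24 than in K326 (limma adjusted p = 0.016), the latter not called as deposited. Nitab4.5_0003495g0010 was at 0.162 to 0.612 in the 9 other libraries and at 1.95, 10.1 and 12.2 in the overexpression. Nitab4.5_0004118g0140 was at 4.06 to 5.81 in KY, 4.93 to 5.74 in K326, 5.87 to 7.41 in the knockout, against 7.96, 23.7 and 20.6 in the overexpression. Nitab4.5_0002216g0020 was at 6.83 to 8.87 in KY, 6.49 to 10.6 in K326, 5.96 to 9.58 in the knockout, compared with 10.2, 22.9 and 20.7 in the overexpression. At each of these 4 genes, overexpression replicate 1 was the lowest of its group. The last 3 were called higher than KY, at 2.44 ± 0.43, 1.505 ± 0.30 and 1.01 ± 0.28, and than K326, at 2.56 ± 0.43, 1.40 ± 0.30 and 1.04 ± 0.28. For Nitab4.5_0003495g0010, which passed the filter through the overexpression group alone, both differences were bound to appear and add no support. The call of Nitab4.5_0004118g0140 against K326 was lost in 4 of 6 fits without 1 library, and those of Nitab4.5_0002216g0020 against K326 and KY in 4 and 3 of 6, at limma adjusted p of up to 0.0688, 0.144 and 0.0598. As deposited, Nitab4.5_0002216g0020 was not called against K326.

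The most abundant gene of the family, Nitab4.5_0000110g0240, stood at 23.2, 21.4 and 24.3 in KY, 37.7, 41.6 and 53.2 in K326, 43.2, 39.9 and 54.4 in the knockout, against 67.2, 56.8 and 34.8 in the overexpression. KY lay below all other libraries, while K326 and the overexpression overlapped. It was higher than KY by 1.12 ± 0.22 in the overexpression (limma adjusted p = 0.003) and 0.90 ± 0.22 in K326 (limma adjusted p = 0.014). Nitab4.5_0004294g0030 was also lowest in KY, at a lower level, with 1.85, 2.17 and 2 in KY, 8.52, 7.86 and 6.74 in K326, 5.6, 8.3 and 4.23 in the knockout, compared with 8.97, 14.2 and 5.6 in the overexpression. The differences from KY were 1.73 ± 0.27 (limma adjusted p = 0.0008) and 1.53 ± 0.27 (limma adjusted p = 0.0028) in the same order. Both genes were called in both comparisons on either scale and with any library left out. Nitab4.5_0003328g0080 and Nitab4.5_0005478g0020 were also called higher in K326 than in KY on both scales, at 0.79 ± 0.24 and 0.95 ± 0.25. Their calls were less steady and held in only 1 of 6 and 3 of 6 fits without 1 library, at limma adjusted p of up to 0.144 and 0.0819.

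**Figure D2:**
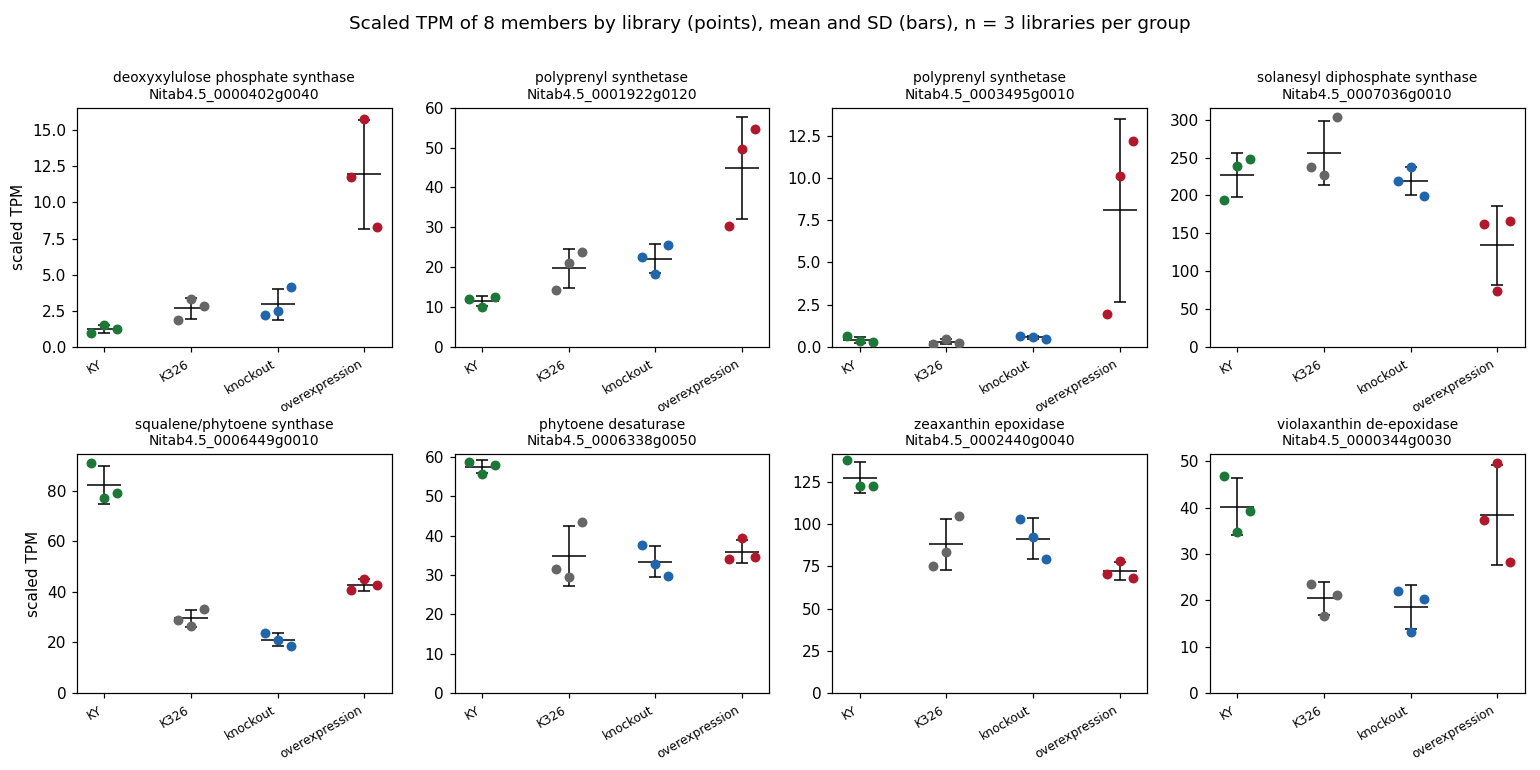
Scaled TPM (vertical axis, from 0) of 8 genes in each library (points), with the mean and SD of each group (bars, n = 3). The deoxyxylulose phosphate synthase and the polyprenyl synthetases stand highest in the overexpression, the solanesyl diphosphate synthase lowest there, and the phytoene synthase and desaturase highest in KY, at 77 to 90.8 and 55.6 to 58.8. The polyprenyl synthetase Nitab4.5_0003495g0010 passed the low-value filter through the overexpression group alone.

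Squalene synthase shares the fold of phytoene synthase but opens the sterol branch outside the plastid. Its 2 tested copies were called in none of the 4 comparisons on either scale. The more abundant, Nitab4.5_0002723g0060, stayed between 29 and 38.2 in all 12 libraries. On scaled values the groups of this gene overlapped in every comparison. As deposited, K326 (33.05 to 39.06) lay above KY (23.69 to 30.88) and the overexpression (19.68 to 28.92).

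From phytoene to the cyclised carotenes, 11 of 17 tested genes were lower and 0 higher in the overexpression than in KY (10 and 0 as deposited). In K326, 10 were lower and 0 higher than in KY, and as deposited 2 were lower and 1 higher. The median difference from KY was -0.67 in the overexpression and -0.73 in K326 on scaled values, and -0.82 and -0.24 as deposited, below the median of all tested genes in each case. Between the overexpression and K326 it was 0.00 scaled, with 1 gene called higher, and -0.57 as deposited, with 10 called lower, beside a shift of all genes of -0.51. Among the 72 tested chlorophyll a-b binding genes, calls against KY were 7 lower and 1 higher in the overexpression, and 11 lower and 2 higher in K326. The lower calls were 9.72% and 15.3%, against 17.3% and 13% of all tested genes. As deposited these counts were 16 and 1 in the overexpression and 3 and 4 in K326. The lower shares were then 22.2% and 4.17%, above 11.5% and 2.99% of all tested genes. The median differences of the chlorophyll a-b binding genes from KY were -0.36 in the overexpression and -0.64 in K326 on scaled values. As deposited they were -0.53 and -0.17. Their part in the result was not tested.

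The squalene/phytoene synthases, which catalyse entry into the carotenoid branch, had a sum over 13 copies of 558 ± 74.6 in KY, 276 ± 55.1 in K326, 232 ± 44.0 in the knockout, against 293 ± 34.8 in the overexpression (SD, n = 3). As deposited the sums were 429 ± 31.1, 297 ± 14.9, 305 ± 42.5 and 204 ± 47.7. KY was highest on both scales. Nitab4.5_0000091g0360, the most abundant copy, stood at 286, 205 and 255 in KY, 149, 84 and 101 in K326, 97.4, 70 and 109 in the knockout, compared with 155, 101 and 98 in the overexpression. All KY libraries lay above the other 9, which overlapped. It was lower than in KY by 1.09 ± 0.26 in the overexpression and by 1.18 ± 0.26 in K326 on the log2 scale (limma adjusted p = 0.0076 and 0.008), and both calls held as deposited and with any library left out.

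Nitab4.5_0006449g0010 separated the groups further, with 90.8, 77 and 79.1 in KY, 40.6, 45.2 and 42.5 in the overexpression, 29, 26.4 and 33 in K326 and 23.9, 20.9 and 18.5 in the knockout. The 4 groups did not overlap. The difference from KY was -0.93 ± 0.13 in the overexpression (limma adjusted p = 0.00038) and -1.45 ± 0.13 in K326 (limma adjusted p = 2.2e-05), called on both scales. The overexpression lay above K326 by 0.53 ± 0.13 (limma adjusted p = 0.028). As deposited the difference was -0.12, above the median of all tested genes, -0.51. The scaled call was lost in 4 of 6 fits without 1 library, with the largest limma adjusted p, 0.0946, without overexpression replicate 2. The copies Nitab4.5_0000483g0270 and Nitab4.5_0003412g0060 were lower than KY in the overexpression at -0.73 ± 0.20 and -0.91 ± 0.22, on both scales, and in K326 at -0.73 ± 0.20 and -0.86 ± 0.22, on scaled values only. The 2 other tested copies were low, with no library above 4.07, and were not called.

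Phytoene desaturase, which introduces the initial double bonds into phytoene and is the target of bleaching herbicides, had 1 gene, Nitab4.5_0006338g0050. It stood at 58.8, 55.6 and 58 in KY, 31.4, 29.5 and 43.4 in K326, 37.5, 32.8 and 29.7 in the knockout, against 34, 39.3 and 34.5 in the overexpression. KY lay above the other 9 libraries, which overlapped. The difference from KY was -0.67 ± 0.15 in the overexpression and -0.73 ± 0.15 in K326 (limma adjusted p = 0.0058 in both). Zeta-carotene desaturase, which carries the desaturation on towards lycopene, was Nitab4.5_0002361g0070, at 40.9, 35.1 and 36.5 in KY, 21.7, 18.8 and 24.5 in K326, 23, 18.5 and 17.4 in the knockout, compared with 25.6, 27.7 and 23.3 in the overexpression. Again KY lay above all others, and the difference from KY was -0.53 ± 0.14 in the overexpression (limma adjusted p = 0.011) and -0.77 ± 0.14 in K326 (limma adjusted p = 0.0028). For both desaturases the calls against KY held with any library left out. Those in the overexpression held as deposited and those in K326 did not.

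Carotene isomerase, which brings lycopene into the all-trans form, had 2 copies of similar low level. Nitab4.5_0004995g0010, at 5.34 to 7.55 over all libraries, was not called on scaled values, and Nitab4.5_0000721g0080 was called lower in the overexpression than in KY at -0.42 ± 0.14 (limma adjusted p = 0.038), though not as deposited. The lycopene cyclases, which close the rings of beta-carotene and lutein precursors, had a sum of 83.6 ± 9.36 in KY, 54.7 ± 4.97 in K326, 54.2 ± 10.6 in the knockout, against 57.4 ± 14.4 in the overexpression (SD, n = 3). As deposited the sums were 64.3 ± 3.53, 59.8 ± 7.59, 71.7 ± 13.3 and 38.6 ± 3.81, so KY had the highest mean on scaled values only. Nitab4.5_0000515g0180 stood at 32.2, 24.8 and 28.3 in KY, 19.8, 16 and 20.1 in K326, 20.8, 15.3 and 16.7 in the knockout, compared with 17.6, 17.6 and 14.3 in the overexpression. It was lower than in KY in both, at -0.75 ± 0.15 in the overexpression (limma adjusted p = 0.0034) and -0.59 ± 0.15 in K326 (limma adjusted p = 0.017), the latter not called as deposited.

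The most abundant cyclase, Nitab4.5_0002642g0140, stood at 33.6, 25.7 and 29.1 in KY, 15.6, 13.3 and 19.6 in K326, 21.5, 10.8 and 13.3 in the knockout, against 24.4, 31.2 and 14.8 in the overexpression. The overexpression spanned almost the whole range of the other groups and no comparison was called, with K326 minus KY at -0.83 ± 0.28 (limma adjusted p = 0.051). Nitab4.5_0002824g0130 was called lower in K326 than in KY (-1.14 ± 0.32, limma adjusted p = 0.025), on scaled values only. A low copy outside the naming rule, Nitab4.5_0002267g0080, was called lower in the overexpression than in KY, at 0.983, 2.6 and 0 against 5.09, 2.68 and 4.52, where overexpression replicate 3 is listed at 0. The call was lost in 4 of 6 fits without 1 library, at limma adjusted p of up to 0.1. Nitab4.5_0005472g0040, whose description joins a cyclase to a synaptobrevin domain of membrane fusion proteins, was not called on scaled values. The 2 tested genes with the cyclase-type FAD domain alone were lower than KY in both, Nitab4.5_0002730g0050 at -0.88 ± 0.17 and -0.83 ± 0.17 and Nitab4.5_0003456g0020 at -1.05 ± 0.18 and -0.86 ± 0.18, in the overexpression and K326. Those in K326 were not called as deposited.

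Of the 4 tested xanthophyll genes, 2 were lower in the overexpression than in KY and 3 were lower in K326 than in KY (1 and 0 as deposited), with 0 higher in either. The lower shares of all tested genes were 17.3% and 13% (11.5% and 2.99% as deposited). Zeaxanthin epoxidase, which turns zeaxanthin into violaxanthin, had its highest mean in KY at both copies on scaled values only. As deposited the knockout mean was highest at both. It was 129 against 83.3 in KY at Nitab4.5_0002016g0120, and 122 against 98.4 in KY at Nitab4.5_0002440g0040. Nitab4.5_0002440g0040 stood at 138, 122 and 122 in KY, 75.4, 83.7 and 105 in K326, 103, 92.1 and 79.2 in the knockout, compared with 70.7, 77.9 and 68 in the overexpression. KY lay above all other libraries, and the difference was -0.81 ± 0.15 in the overexpression (limma adjusted p = 0.002) and -0.54 ± 0.15 in K326 (limma adjusted p = 0.023), the latter not called as deposited. Nitab4.5_0002016g0120 was called lower in the overexpression than in KY, at 72.7 to 87.6 against 101 to 118, but the call was lost in every fit without 1 library and as deposited.

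Violaxanthin de-epoxidase, which reverses that reaction in strong light, was lower in K326 than in KY on scaled values but not in the overexpression. Nitab4.5_0000344g0030 stood at 46.8, 34.7 and 39.3 in KY, 23.5, 16.6 and 21.2 in K326, 22, 13.1 and 20.4 in the knockout, against 37.3, 49.7 and 28.3 in the overexpression. The overexpression overlapped KY and lay above K326 and the knockout. K326 minus KY was -0.95 ± 0.24 (limma adjusted p = 0.014), overexpression minus K326 was 0.86 ± 0.24 (limma adjusted p = 0.042) and overexpression minus KY was -0.09 ± 0.24 (limma adjusted p = 0.8). As deposited neither call stood, with -0.46 and 0.21, and the call against K326 was lost in 5 of 6 fits without 1 library, at limma adjusted p of up to 0.153. The other copy, Nitab4.5_0012098g0010, was called lower in K326 (-0.86 ± 0.20, limma adjusted p = 0.012), not as deposited, and its overexpression libraries, at 4.6 to 7.5, overlapped KY.

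**Figure D3:**
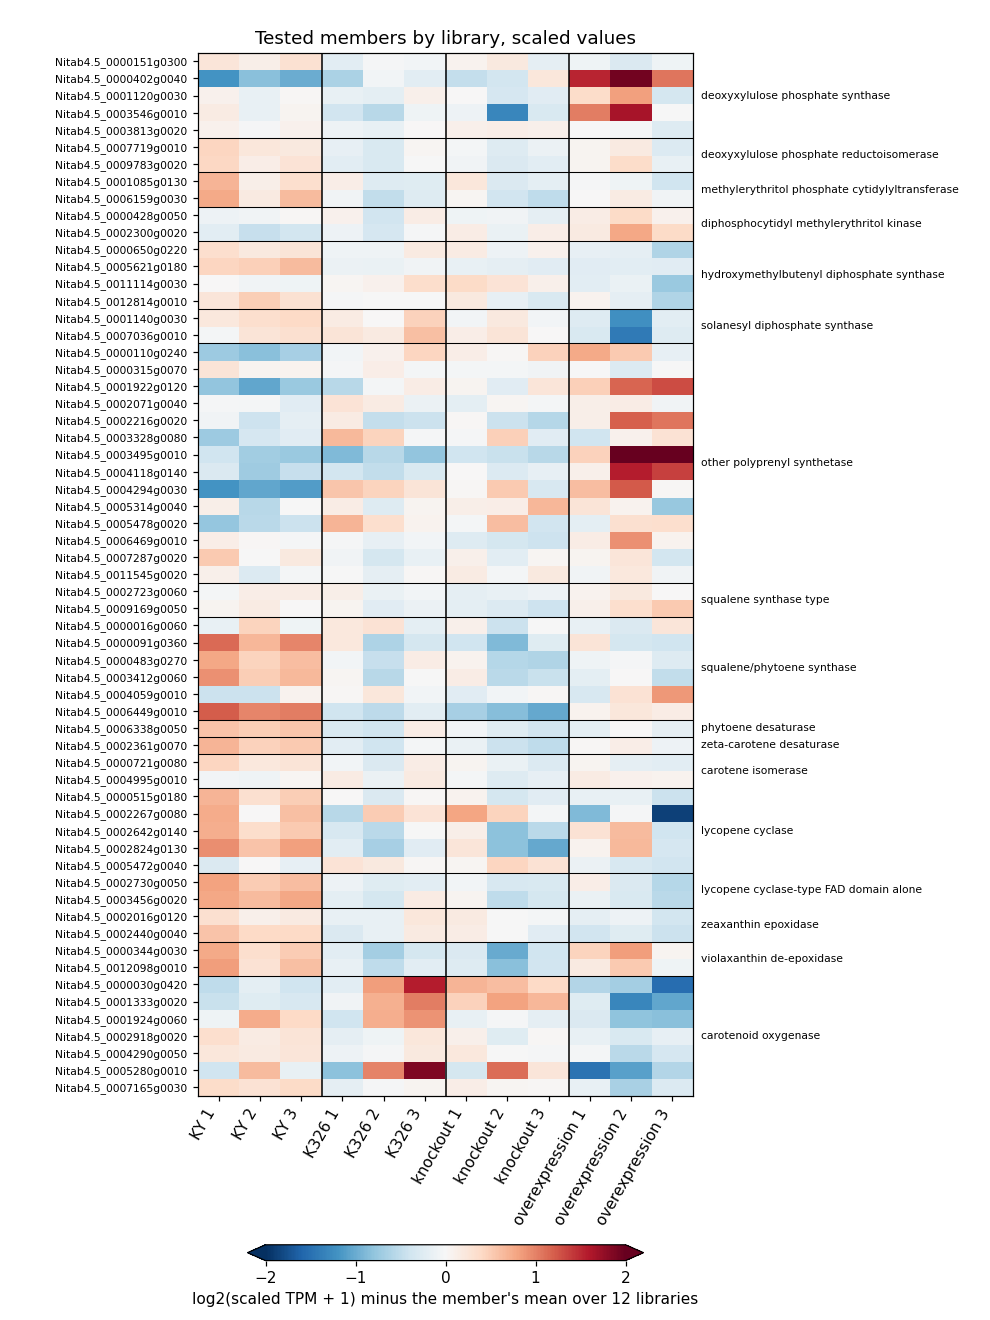
Scaled log2(TPM + 1) of the 61 tested genes (rows, by enzyme step) in 12 libraries (columns), each row as the difference from its own mean. The 3 KY libraries are above their row means at most genes from phytoene synthase to the epoxidase, and several polyprenyl synthetases stand out in overexpression replicates 2 and 3.

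The carotenoid oxygenases, iron enzymes that cleave carotenoids, had 7 tested copies of 23. In the overexpression 4 were lower and 0 higher than in KY (1 and 0 as deposited), and 2 were lower and 0 higher than in K326 (8 and 0 as deposited, where more copies were tested). Of all tested genes, 17.3% were called lower than in KY (11.5% as deposited) and 4.73% lower than in K326 on scaled values. The 8 are read beside a share of 36.9% of all tested genes called lower than in K326 as deposited, where the median of all was -0.51. The descriptions do not separate the cleavage enzymes of abscisic acid synthesis from the others. Summed over 23 copies they stood at 345 ± 5.88 in KY, 373 ± 104 in K326, 353 ± 6.38 in the knockout, compared with 230 ± 30.8 in the overexpression (SD, n = 3), or 267 ± 27.0, 417 ± 146, 470 ± 64.0 and 164 ± 52.5 as deposited. The overexpression was lowest on both scales, and K326 had the widest spread.

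In 3 copies the libraries of a group lay close together. Nitab4.5_0002918g0020, the most abundant, stood at 141, 125 and 133 in KY, 98.2, 105 and 130 in K326, 120, 94.4 and 113 in the knockout, against 100, 89.9 and 99 in the overexpression. Nitab4.5_0007165g0030 stood at 88.7, 83.8 and 90 in KY, 60.4, 67.6 and 71.4 in K326, 75.5, 70.6 and 70 in the knockout, compared with 61.9, 43.5 and 56.6 in the overexpression. At both, KY lay above the overexpression. They were lower there by 0.46 and 0.70 on the log2 scale (limma adjusted p = 0.027 and 0.0028), and Nitab4.5_0004290g0050 was lower by 0.52 (limma adjusted p = 0.015). The call of Nitab4.5_0007165g0030 also stood as deposited and with any library left out.

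The 4 other copies varied widely within K326. Nitab4.5_0000030g0420 stood at 11.5, 14.4 and 12.5 in KY, 14.3, 30.5 and 51.9 in K326, 27.4, 26.2 and 22.4 in the knockout, against 10.8, 10 and 5.18 in the overexpression. Nitab4.5_0001333g0020 stood at 35.7, 41 and 39.1 in KY, 46.4, 80.4 and 99.9 in K326, 68, 86.6 and 78 in the knockout, compared with 41.3, 19.2 and 23.3 in the overexpression. At both, K326 replicate 1 was lowest of its group, and the overexpression lay below K326. They were lower there by 1.66 ± 0.37 and 1.41 ± 0.30 than in K326 on the log2 scale (limma adjusted p = 0.021 and 0.017), and both were called as deposited too. Without K326 replicate 2, K326 replicate 3 or overexpression replicate 2 these calls were lost, at limma adjusted p of 0.0566 to 0.0704, and that of Nitab4.5_0000030g0420 also without overexpression replicate 3. Nitab4.5_0001333g0020 was also called higher in K326 than in KY (0.88 ± 0.30, limma adjusted p = 0.049), and that call was lost in 5 of 6 fits without 1 library.

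Nitab4.5_0001924g0060 was called lower in the overexpression than in KY, at 13.4, 9.05 and 8.91 against 15.6, 28.4 and 22.3 (-0.995 ± 0.31, limma adjusted p = 0.03), on scaled values only. Nitab4.5_0005280g0010, named for its spread after its values were seen, ranged from 7.75 in K326 replicate 1 to 55.1 in K326 replicate 3, a ratio of 7.11, and was called in no comparison on scaled values. In K326, 4 of 7 tested oxygenases had a highest value more than 2 times the lowest, against 7 of the 61 tested genes, and the median ratio over the 61 was 1.34. The same count was 1 of 7 in KY, 1 of 7 in the knockout and 3 of 7 in the overexpression, where 16 of the tested genes passed it.

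**Figure D4:**
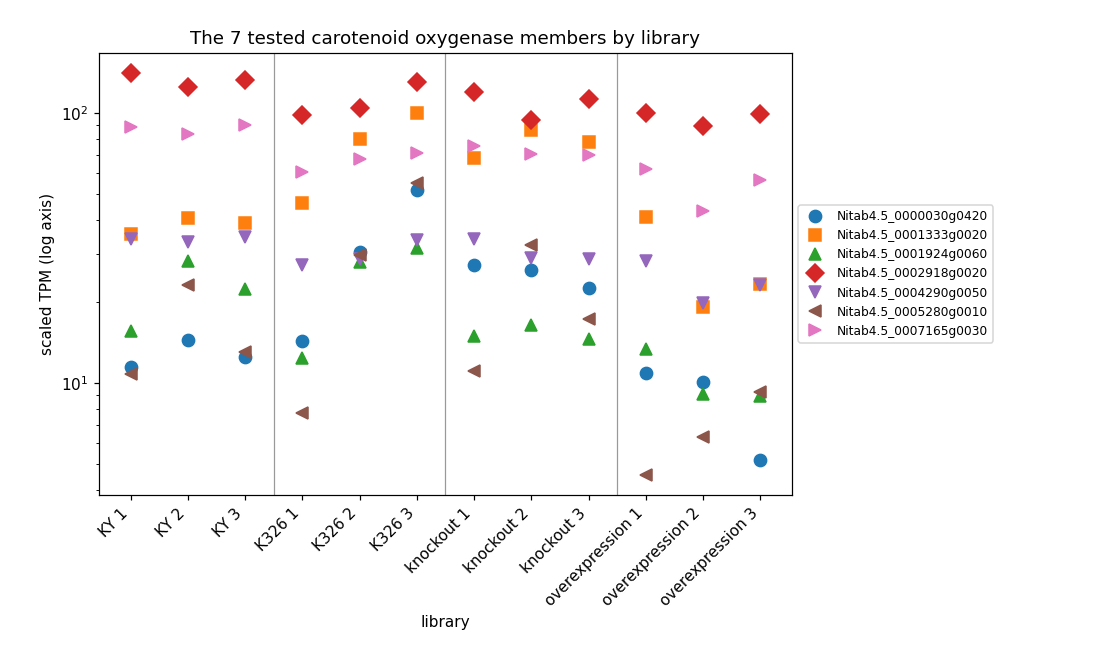
Scaled TPM (log axis) of the 7 tested carotenoid oxygenases in each of 12 libraries, 1 symbol per gene. Nitab4.5_0002918g0020 stays between 89.9 and 141 throughout, while Nitab4.5_0005280g0010 and Nitab4.5_0000030g0420 spread over K326 from 7.75 to 55.1 and from 14.3 to 51.9.

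Neighbouring routes were counted from lists of description words and are read against the background shares of all tested genes, 17.7% higher and 17.3% lower in the overexpression and 12.3% and 13% in K326, both against KY. The remaining precursor genes (cyclodiphosphate synthase and isopentenyl diphosphate isomerase) had 2 higher and 0 lower of 6 tested in the overexpression against KY, and the same counts in K326 against KY. The mevalonate route, which supplies sterols outside the plastid, had 13 higher and 4 lower of 25 in the overexpression against KY (3 and 3 as deposited) and 2 and 2 in K326. These are 52% and 16% in the overexpression and 8% and 8% in K326. As deposited the overexpression shares were 12% and 12%, against a background of 6.76% and 11.5%. Terpene synthases and the sterol cyclisation genes had 16 higher and 4 lower of 40 in the overexpression (10 and 3 as deposited) and 7 and 4 in K326, or 40% and 10%, and 17.5% and 10%.

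Fibrillins, which coat plastid lipid globules that hold carotenoids, had 3 higher and 4 lower of 29 in the overexpression against KY and 1 and 6 in K326, or 10.3% and 13.8%, and 3.45% and 20.7%. Tocopherol and quinone prenyl transfer genes had 3 higher and 4 lower of 25 in the overexpression and 3 and 6 in K326, or 12% and 16%, and 12% and 24%. On scaled values, both of these lists lay below the background shares in the overexpression. As deposited, their lower shares there were 17.2% and 16%, above the background of 11.5%. Their higher shares as deposited were 10.3% and 0%, against 6.76%. In K326 on scaled values, the lower shares of 20.7% and 24% lay above the background of 13%. The higher shares, 3.45% and 12%, lay below that of 12.3%. Geranylgeranyl reductase, which makes the phytyl chain of chlorophyll and tocopherol, had 2 tested genes and no call against KY in either, with a summed level of 365 ± 70.4 in KY, 249 ± 77.8 in K326, 210 ± 90.0 in the knockout, against 253 ± 73.7 in the overexpression (SD, n = 3). As deposited, K326 against KY gave 4 higher and 0 lower remaining precursor genes, 8 and 0 of the mevalonate route, 9 and 0 of the terpene and sterol list, 4 and 1 fibrillins, and 5 and 0 of the tocopherol and quinone list. The higher shares were 66.7%, 32%, 22.5%, 13.8% and 20% in that order, against a deposited background of 24%. The lower share of the fibrillins was 3.45%, against 2.99%. Overexpression against KY as deposited gave 1 and 0 remaining precursor genes, 3 and 5 fibrillins, and 0 and 4 of the tocopherol and quinone list. In the knockout against K326, 0 genes of these 6 lists were called by limma.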

How the data were processed

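RNA sequencing of 12 leaf libraries (3 per group) was given as 1 table. The deposited values were taken as TPM from the tools named in the submitters' processing notes, Salmon and StringTie, and from their range. No unit stands in the header, so FPKM is possible. Versions, settings and genome build are not given in the sources used here. TPM keeps no depth, so depth is unknown. As 0 of the 69500 identifiers were found in the RefSeq table, positions and sequences are left out.

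Scaling factors were median ratios of each library to the average library, from the 20130 genes with a value of at least 1 throughout. Genes at 1 or more in at least 3 libraries were fitted as log2(value + 1) in limma 3.58.1 (R 4.3.3), with 4 group means, its trend and robust options, and p-values adjusted by Benjamini-Hochberg over all tested genes, called under 0.05. The planned count test did not apply to TPM. Genes named were the most abundant tested copy of each of 17 steps and every called gene with a mean of 5 or more in the higher group, 44 in all; other genes named were chosen after their values were seen. The members and lists were chosen with earlier results of these data known. The fit was tested on simulated data. Alternatives were the deposited scale, quantile normalization, other filters and pseudocounts, the replicate number as a block, the 6 compared libraries alone and each library left out. Tables and figures used matplotlib 3.10.9, numpy 2.4.6 and pandas 2.3.3 in Python 3.11.15.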

Additional observations from a re-analysis of the deposited data

How the results depend on the processing

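The knockout gave 0 called genes under every alternative run. For overexpression minus KY the 33 calls became 22 to 32 with 1 library left out, and between 24 and 33 under the other settings. For K326 minus KY the 23 calls became 15 as deposited and 9 to 22 with 1 library left out. For overexpression minus K326 the 11 calls became 36 as deposited, 7 with no filter on low values, 0 with the 6 compared libraries alone and 1 to 15 with 1 library left out. As deposited, 4 called differences turned sign: Nitab4.5_0002300g0020 (-0.023) and Nitab4.5_0006449g0010 (-0.12) in overexpression minus K326, and Nitab4.5_0007719g0010 (0.055) and Nitab4.5_0009783g0020 (0.045) in K326 minus KY. The median of all tested genes on that scale was -0.51 in the former comparison and 0.39 in the latter. Read against it, each of the 4 kept its scaled direction. The cause was not tested. Of 65 called differences, leaving out those of Nitab4.5_0000151g0300 and Nitab4.5_0002267g0080, which lay under the naming level, 37 held as deposited, 56 with quantile normalization, 51 with no filter, 65 with a pseudocount of 0.1, 58 with the block and 48 with the 6 libraries alone. With the mean of 5 or more, 55 of 55 held. With the replicate number as a block the counts were 0, 32, 21 and 9 in the order above. Same-numbered libraries shared only a number: the correlations of their deviations lay between -0.22 and 0.34, and 2, 3, 5 and 0 of 6 libraries correlated best with their own number. Unknown depth limits what low genes can show.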
